A study of Arabidopsis thaliana with 22 samples.

Results

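The subject is the RNA counted at loci of the chloroplast and mitochondrial genomes of Arabidopsis thaliana. The members were the loci whose code starts with ATCG (chloroplast, 131 loci) or ATMG (mitochondrion, 141 loci), together 272 of the 24185 loci in the count table. The choice used the codes and no measured value. All 24185 codes of the count table ended in 0, so loci with other codes could not be members. Of the chloroplast loci 36 had 0 counts in every library, 71 were tested and 24 had counts but passed no filter on low values. Of the mitochondrial loci 90 had 0 counts in every library, 13 were tested and 38 had counts but were not tested. The filter kept loci with at least 1 CPM (a count relative to all counts of its library) in at least 2 libraries. A locus that passed only through the libraries where it was high was favoured to differ, so counts over tested loci do not speak for all members.

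Whole seedlings of 6 natural accessions (T1080, Mh-0, Lip-0, Got-7, C24 and Ba-1), grown on soil for 14 days, were given ultraviolet light or a mock treatment and harvested 3 h later. Per the labels, the lamps gave 4.35 W per square metre at 312 nm, and no exposure time was found in the sources used here. There were 22 libraries, 11 labelled mock and 11 labelled UV, in 12 groups of accession and treatment, of which 10 held 2 libraries and 2 (Got-7 UV and T1080 mock) held 1. Whether the 2 libraries of a group stem from different plants is not stated, so p-values measure the spread between these libraries, which may be technical.

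The chloroplast genome encodes subunits of the photosystems, the cytochrome complex, the ATP synthase and the NADH dehydrogenase-like complex, the large subunit of Rubisco, and parts of its own ribosome and RNA polymerase. The RefSeq chloroplast record lists 85 protein-coding genes, 37 transfer RNA genes and 7 ribosomal RNA genes, and the RefSeq mitochondrial record lists 33 protein-coding genes, among them 9 whose symbols start with nad, subunits of respiratory complex I. Nuclear messenger RNAs carry a long poly(A) tail. In plant organelles a tail marks an RNA for decay, and most organelle transcripts have none. The labels name a TruSeq kit, whose standard protocol captures RNA by its poly(A) tail. The organelle counts are therefore what was left after such a selection and are not read here as expression levels of the organelle genomes.

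The sources used here do not pair most ATCG and ATMG codes with gene names or lengths. Notes on nuclear genes in the RefSeq annotation describe 7 chloroplast loci, of which 6 were tested, and 52 mitochondrial loci, of which 0 were tested. All other loci are given by code alone, with no role. Levels are not per length, so a locus is compared with itself across libraries and not with other loci, except as a share of the counts.

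Libraries 1 to 11, in the numbering of the labels, were labelled Ba-1, C24 and Got-7, and libraries 12 to 22 were labelled Lip-0, Mh-0 and T1080. These labels were in doubt from earlier work on these data. Libraries 1 to 11 are called the first set below and libraries 12 to 22 the second. Each set held both labelled treatments. The sets were compared within 6 blocks, which cut across the labelled accessions and treatments. Block 1 held libraries 1, 3 and 12, block 2 held 2, 4, 13 and 14, block 3 held 5, 6, 15 and 16, block 4 held 7, 17 and 18, block 5 held 8, 9, 19 and 20, and block 6 held 10, 11, 21 and 22. The blocks came from an earlier look at the values of these same libraries, and no library was moved out of its labelled group. They served as a covariate, as the unit of the ratios and counts over blocks, and in a test of set by block. Blocks drawn from the values can lower the spread within them. Standard errors and p-values of fits with blocks may therefore be too small. Whatever else separates the sets, labelled accession included, cannot be told apart from the number.

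Total counts ran from 3539510 in library 1 (Ba-1 mock 1), the shallowest, to 20903894 in library 7 (C24 UV 1). Library 1 also stood apart in organelle counts, as given below. The tissue was checked with 5 nuclear genes of green tissue, among them the Rubisco small subunit gene RBCS1A. Their summed level was 27270 to 34177 CPM in the first set and 15845 to 26075 CPM in the second, most of it from RBCS1A (medians 18237 and 14286 CPM). PSBO1 was also lower without overlap, LHCA1 and LHCB2.1 had lower medians with overlapping ranges, and CAB2 had the higher median in the second set (2723 and 2915 CPM). The summed level of 6 root genes was 89.8 to 259 CPM in the first set and 54.2 to 224 CPM in the second, nearly all of it from PYK10, and 3 flower genes summed to at most 1.98 CPM.

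Chloroplast loci took a small share of every library, and that share was higher in the second set. It ran from 0.0366% to 0.313% of counts in the first set, with a median of 0.0543%, and from 0.112% to 0.414% in the second, with a median of 0.187% (11 libraries each). The second set was higher in 6 of 6 blocks. Over the blocks the median ratio of set means was 3.68 (range 1.69 to 4.40), a log2 ratio of 1.88 with an SD of 0.59 over blocks. Counting error was small beside this, since the 95% exact binomial interval of the lowest library, library 3 (Ba-1 UV 1), was 0.0355% to 0.0378%. Intervals cover counting error only, since reads of 1 molecule could have been counted repeatedly. These sums over members were described and not tested.

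In 5 of the 6 blocks every library of the second set was above every library of the first. Block 1 was the exception. There library 1 stood at 0.313%, library 3 at 0.0366% and library 12 (Lip-0 mock 1) at 0.295%. Apart from library 1, the highest library of the first set was library 9 (Got-7 mock 1) at 0.0927%, below the lowest of the second set, library 22 (T1080 UV 2) at 0.112%. Without library 1 the median log2 ratio over blocks was 1.97.

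**Figure D1:**
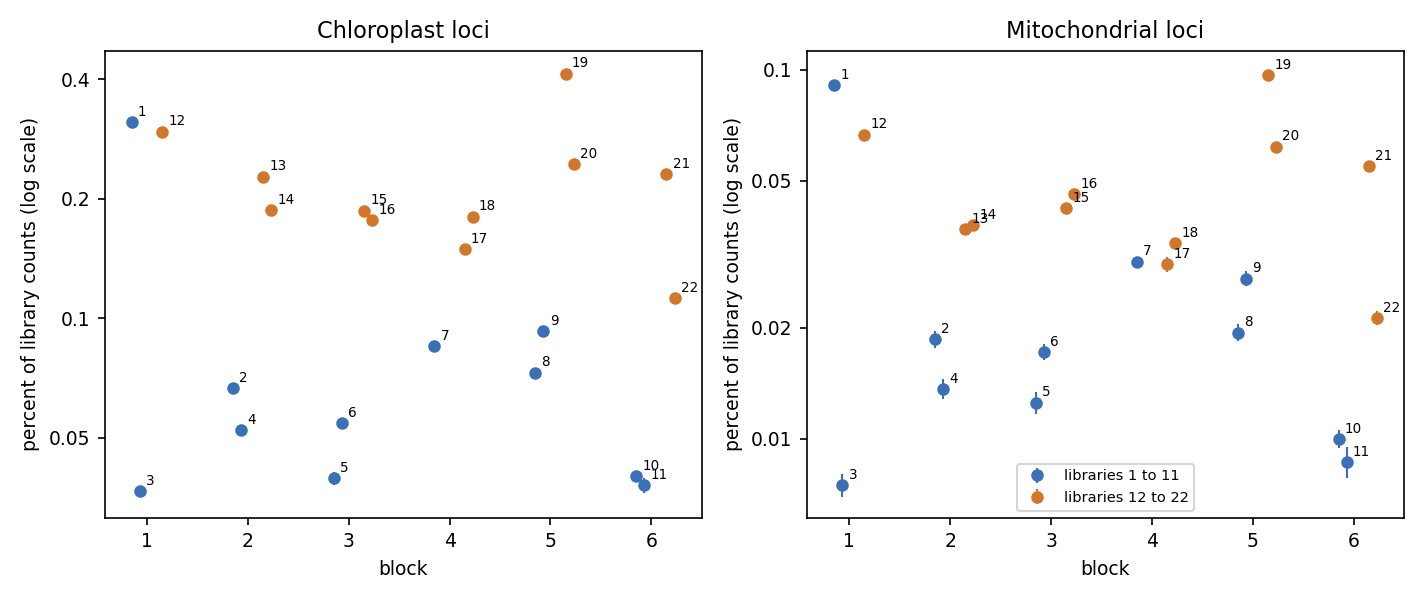
Percent of library counts at chloroplast loci (left) and mitochondrial loci (right), on log axes, by block for the 22 libraries (points with library numbers, bars for 95% exact binomial intervals). Chloroplast shares of the second set lay above those of the first in every block except block 1, where library 1 was at 0.313%.

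Mitochondrial loci followed with a smaller difference. Their share was 0.00747% to 0.0905% in the first set (median 0.0172%) and 0.0212% to 0.0965% in the second (median 0.0420%). The second set was higher in 6 of 6 blocks, and in 4 of them without overlap between libraries. The median ratio over blocks was 2.65 (range 1.05 to 4.08), a log2 ratio of 1.39 with an SD of 0.77 over blocks. Block 4 had the smallest ratio, 1.05, with library 7 at 0.0302% and libraries 17 and 18 (Mh-0 mock 2 and UV 1) at 0.0297% and 0.0338%. Without library 1 the median log2 ratio was 1.67.

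Since the chloroplast share differed by more than the mitochondrial share, the balance between the genomes differed as well. The first set had 20.4 to 35.4 mitochondrial counts per 100 chloroplast counts (median 27.9), and the second had 16.2 to 26.1 (median 22.5). The second set was lower in 6 of 6 blocks, and in 4 of them without overlap. The ranges of the sets overlapped between 20.4 and 26.1.

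Another RNA without a poly(A) tail was measured beside the members. The nuclear 18S ribosomal RNA locus AT2G01010 stood at 0 to 1.37 CPM in the first set (median 0.283) and at 0.440 to 2.40 CPM in the second (median 1.27). It was higher in the second set in 6 of 6 blocks, in 5 of them without overlap. Library 3, with the lowest chloroplast share, had the highest 18S level of the first set, and library 1, with the highest chloroplast share of that set, had 1 count of it. The small nuclear RNA locus AT3G06900 (U4.2) was at 0 to 0.283 CPM in the first set and 0.110 to 0.687 CPM in the second, again higher in 6 of 6 blocks. Both rest on few counts, with at most 32 for the 18S locus in any library. The part of poly(A) selection in the set difference was not tested.

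**Figure D2:**
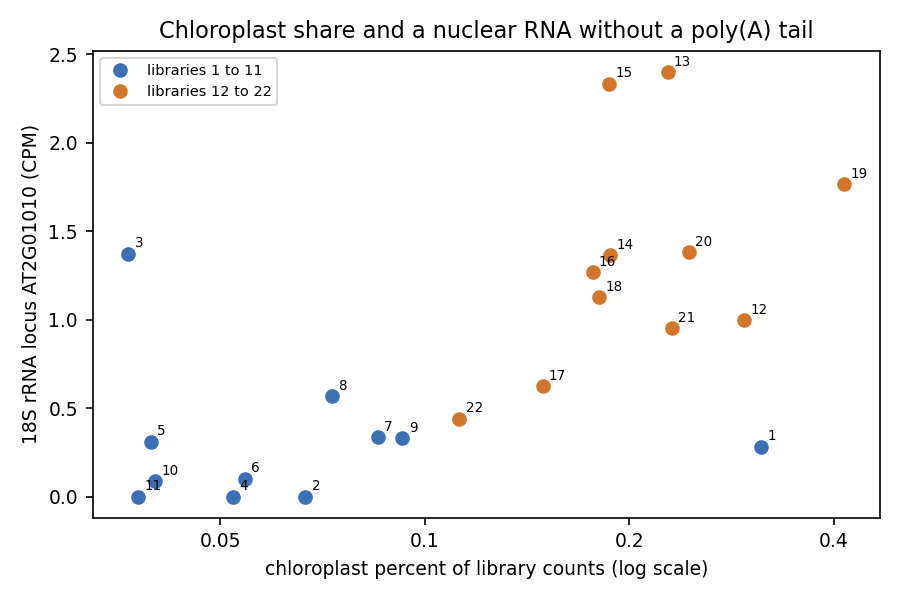
Level of the nuclear 18S ribosomal RNA locus AT2G01010 in CPM (vertical axis) against the chloroplast percent of library counts (horizontal log axis) for the 22 libraries, numbered. The libraries of the second set lay at 0.440 to 2.40 CPM and at 0.112% or more, and libraries 1 and 3 lay apart from the other 9 of the first set.

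A few loci held most of the counts of each genome. The leading 2 chloroplast loci, ATCG00020 and ATCG00490, made up a median of 46.0% of chloroplast counts (range 21.2% to 53.1% over the 22 libraries), and the leading 5 made up 63.1%. In the mitochondrial genome ATMG00020 and ATMG01390 made up a median of 85.7% (range 73.8% to 92.3%), and the leading 5 made up 94.5%. The mitochondrial share was thus mostly that of ATMG00020 and ATMG01390. The sources used here give these loci no RNA type, so the share is not read as one of messenger RNA. A nuclear chromosome of Arabidopsis carries a copy of much of the mitochondrial genome, and the sources used here do not give how reads with several matches were counted. The mitochondrial values are uncertain to that extent. How such reads were counted is unknown for chloroplast loci as well. Their part in the loci without counts, in both genome shares and in the balance between the genomes was not tested.

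ATCG00020 stood at 38.5 to 1006 CPM in the first set (median 115) and at 251 to 1172 CPM in the second (median 542). The highest value of the first set was library 1, and the next was library 9 at 236 CPM, so that the sets overlapped through library 1. As a share of chloroplast counts it was 10.5% to 32.2% in the first set (median 20.4%) and 22.3% to 31.2% in the second (median 26.8%). The log2 fold change in CPM, second set over first within blocks, was 2.09 ± 0.41 (SE, 11 and 11 libraries, edgeR adjusted p = 0.000238).

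ATCG00490 behaved alike, at 39.0 to 650 CPM (median 89.4) in the first set and 229 to 818 CPM (median 418) in the second. Its share of chloroplast counts was 10.7% to 20.8% in the first set and 19.7% to 22.5% in the second. In each of the 6 blocks every library of the second set had the higher share. The next 3 leading loci, ATCG00340, ATCG00280 and ATCG00350, each made up a median of 6.52%, 5.68% and 4.88% of chloroplast counts. Their log2 fold changes in CPM were 1.90 ± 0.31, 1.90 ± 0.32 and 1.85 ± 0.34, and all 5 leading loci were called.

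ATMG00020 stood at 31.1 to 487 CPM in the first set (median 88.0) and at 99.1 to 512 CPM in the second (median 219). Its log2 fold change was 1.33 ± 0.38 (SE, edgeR adjusted p = 0.0045). ATMG01390 stood at 24 to 349 CPM (median 55.7) and at 77.5 to 355 CPM (median 146), with a log2 fold change of 1.29 ± 0.36. For both, the ranges of the sets overlapped widely, and library 1 was the highest of the first set.

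The remaining leading mitochondrial loci changed by less. ATMG00090 was at 4.70 to 14.6 CPM in the first set (median 8.76) and at 8.59 to 20.3 CPM in the second (median 11.4), a log2 fold change of 0.63 ± 0.10. ATMG00060 was at 2.45 to 6.78 CPM (median 4.21) and 3.75 to 8.83 CPM (median 6.05), a log2 fold change of 0.45 ± 0.11. ATMG00030 was at 1.83 to 30.2 CPM (median 5.79) and 6.28 to 28.8 CPM (median 11.7), a log2 fold change of 1.1 ± 0.35. All 3 were called and had overlapping ranges.

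**Figure D3:**
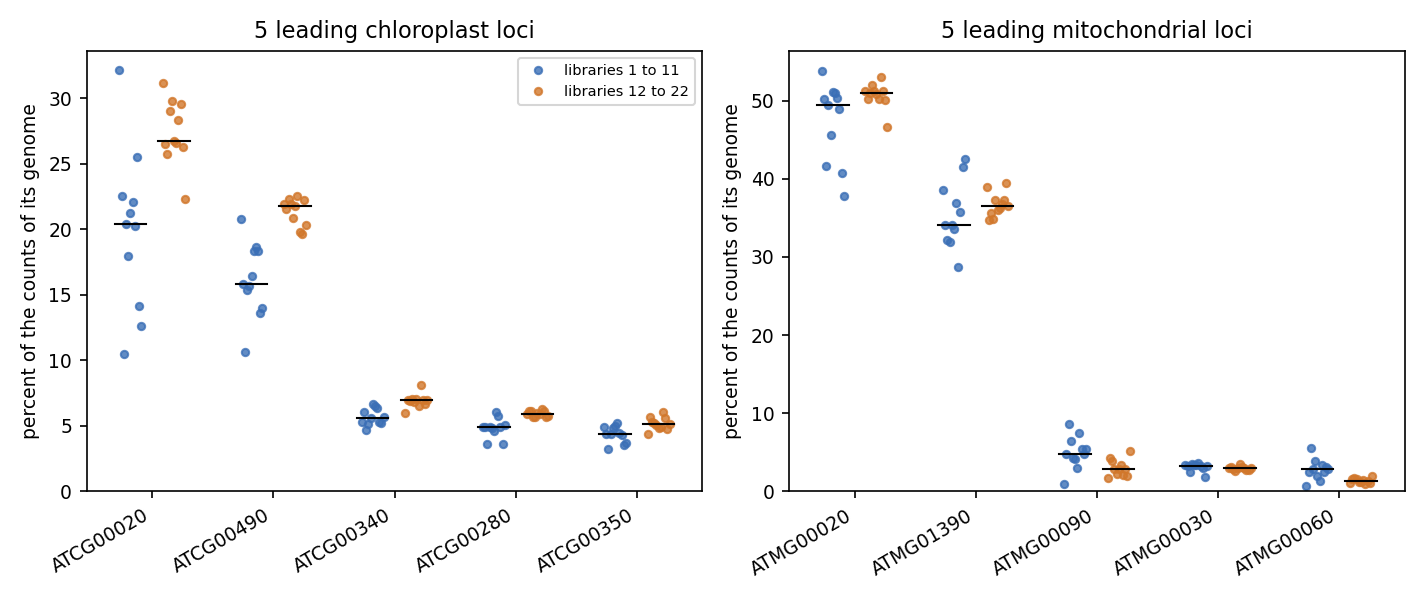
Percent of the counts of its own genome for the 5 leading chloroplast loci (left) and the 5 leading mitochondrial loci (right), 1 point per library by set, with a black line at the set median. ATCG00020 and ATCG00490 had medians of 20.4% and 15.8% in the first set and 26.8% and 21.8% in the second, while ATMG00090 and ATMG00060 had medians of 4.83% and 2.84% and then 2.90% and 1.34%.

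The set difference was then tested at every locus of the table, with block as a covariate. Of the 71 tested chloroplast loci 65 were called at an edgeR adjusted p under 0.05, 63 higher and 2 lower in the second set. All 11 called loci among the 13 tested mitochondrial loci were higher. Of the 13, ATMG00080, ATMG00660 and ATMG01120 reached at most 0.848, 0.848 and 0.623 CPM in the first set. They passed the filter only through the second set, which favoured a rise, so their direction adds no support. ATMG00080 and ATMG01120 were among the called loci, and ATMG00660 was not. Among the chloroplast loci called higher, ATCG00080, ATCG00920, ATCG00950 and ATCG01210 reached at most 1.41 CPM in the first set. Their medians there were 0.344, 0.204, 0.403 and 0 CPM. Whether these and other low loci needed libraries of the second set to pass the filter was not examined, so their direction adds no support either. The sets differed at most loci of the table, with 76.2% of the 18149 tested loci called, 37.7% higher and 38.5% lower. The share of members called is thus to be read against a high background, while their direction was nearly all one way. The median log2 fold change was 1.38 over the chloroplast loci (range −0.91 to 2.33) and 1.1 over the mitochondrial loci (range 0.45 to 2.04), against −0.01 over all tested loci.

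Few loci separated the sets completely. Only 1 chloroplast locus and 0 mitochondrial loci were higher in every library of the second set than in any of the first, against 14.6% of all tested loci higher and 8.97% lower. That locus was ATCG00750, described as ribosomal protein S11, a protein of the small ribosomal subunit. It was at 0.623 to 1.866 CPM in the first set (median 1.42) and at 1.874 to 8.24 CPM in the second (median 2.83), so the sets nearly touched. Its log2 fold change was 1.11 ± 0.21. Library 1, with the highest organelle shares of the first set, was included in these counts. How many loci would separate the sets without library 1 was not examined.

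The other 5 described loci that were tested also rose in the second set. ATCG00670, plastid-encoded CLP P, is a subunit of the Clp protease that degrades proteins in the plastid. It was at 4.09 to 15.8 CPM in the first set (median 4.87) and 7.05 to 19.5 CPM in the second (median 11.5), a log2 fold change of 1.11 ± 0.17. ATCG00530, which the note describes as a CemA-like proton extrusion protein, was at 2.15 to 16.1 CPM (median 2.96) and 6.06 to 15.2 CPM (median 7.32), a log2 fold change of 1.11 ± 0.20. ATCG00430 was at 1.29 to 9.61 CPM (median 2.15) and 3.70 to 10.1 CPM (median 5.27), a log2 fold change of 1.13 ± 0.21. Its description, photosystem II reaction center protein G, comes from a note on the nuclear locus AT5G11770 alone. That name was not checked against another source and may be wrong, so no role is read from it here.

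ATCG00660, described as ribosomal protein L20 of the large ribosomal subunit, was at 0 to 2.54 CPM in the first set (median 0.283) and 0.469 to 2.28 CPM in the second (median 0.939), a log2 fold change of 1.36 ± 0.34. ATCG00420, which a note ties to a nuclear pseudogene without naming it, changed by 1.39 ± 0.22. The seventh described locus, ATCG01310 (ribosomal protein L2), had 1 count in all libraries together and was not tested. All 5 of the tested loci given after S11 had overlapping ranges.

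Of the loci with no description, ATCG01080 had the smallest p among the rises. It stood at 0.467 to 4.52 CPM in the first set (median 0.946) and at 3.44 to 11.9 CPM in the second (median 5.36), a log2 fold change of 2.33 ± 0.24 (SE, edgeR adjusted p = 1.51e-08). ATCG00800 followed with 1.38 ± 0.15. The 2 loci that fell were ATCG00450 and ATCG00820. ATCG00450 stood at 22.5 to 54.8 CPM in the first set (median 36.5) and at 13.3 to 23.2 CPM in the second (median 18.8), a log2 fold change of −0.91 ± 0.11. ATCG00820 was low, with medians of 1.81 and 1.13 CPM, and changed by −0.50 ± 0.19 (edgeR adjusted p = 0.0216). Its call ended without library 7 (−0.39, adjusted p = 0.0979) or library 10, Got-7 mock 2 (−0.40, adjusted p = 0.0681).

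To separate a change within a genome from the change of the whole genome, each library was scaled to its own chloroplast or mitochondrial total and the test was repeated. On this scale 40 of the 71 chloroplast loci were called, 11 higher and 29 lower, and 8 of the 13 mitochondrial loci, 4 higher and 4 lower. Over all tested loci, with nuclear loci scaled to nuclear totals, 76.1% were called, 37.6% higher and 38.5% lower. The median log2 fold change was −0.28 over the chloroplast loci and −0.08 over the mitochondrial loci. Shares of a total are not independent, since a gain of the leading locus lowers every other share. With the leading locus left out of the totals, 42 chloroplast loci were called, 17 higher and 25 lower, and 8 mitochondrial loci, 5 higher and 3 lower.

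All 5 leading chloroplast loci were called higher as a share of chloroplast counts, by 0.48 ± 0.14 for ATCG00020, 0.39 ± 0.08 for ATCG00490, 0.26 ± 0.05 for ATCG00340, 0.28 ± 0.06 for ATCG00280 and 0.22 ± 0.07 for ATCG00350 (log2 fold changes on the own-genome scale, SE). ATCG01080 was higher by 0.70 ± 0.14. ATCG00450 fell furthest, with a log2 fold change of −2.64 ± 0.19 on this scale. Its share of chloroplast counts was 1.55% to 8.22% in the first set (median 5.99%) and 0.517% to 1.21% in the second (median 0.953%), and the sets did not overlap. ATCG00820 changed by −2.25 ± 0.32.

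Of the described loci, CLP P (ATCG00670, −0.60 ± 0.13) and the CemA-like protein (ATCG00530, −0.55 ± 0.12) were called lower as shares of chloroplast counts. So were ATCG00430 (−0.54 ± 0.18), whose described name was not checked, and ribosomal protein S11 (ATCG00750, −0.60 ± 0.26). The S11 call was near the threshold (edgeR adjusted p = 0.0386) and ended without any 1 of 13 libraries (3, 4, 6, 7, 10, 11, 12, 14, 15, 16, 17, 20 or 21). It also ended with the leading locus left out of the totals (−0.47, edgeR adjusted p = 0.0757). Ribosomal protein L20 (ATCG00660) stood at −0.21 ± 0.32 and was not called.

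In the mitochondrial genome, ATMG00060 was lower by 0.90 ± 0.26 and ATMG00090 by 0.71 ± 0.27 on the own-genome log2 scale (edgeR adjusted p = 0.0038 and 0.0267). ATMG00060 made up 0.749% to 5.51% of mitochondrial counts in the first set (median 2.84%) and 0.914% to 1.92% in the second (median 1.34%). Library 1 had the lowest share of ATMG00060 and of ATMG00090 in the first set, at 0.749% and 0.967%. The call of ATMG00090 ended without library 8 (C24 UV 2), 12 or 19 (Mh-0 UV 2), at adjusted p = 0.0554, 0.0536 and 0.0555. ATMG00020 was called at 0.10 ± 0.04 (adjusted p = 0.0457), and that call ended without any 1 of 14 libraries (3, 4, 5, 8, 9, 10, 11, 12, 14, 15, 16, 19, 21 or 22). ATMG01390 stood at 0.06 ± 0.05 and was not called, but it was called at 0.14 ± 0.06 with the leading locus left out of the totals (edgeR adjusted p = 0.0312).

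The count of mitochondrial loci called on the own-genome scale fell to 3 without library 8 and to 5 without library 12 or library 19.

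**Figure D4:**
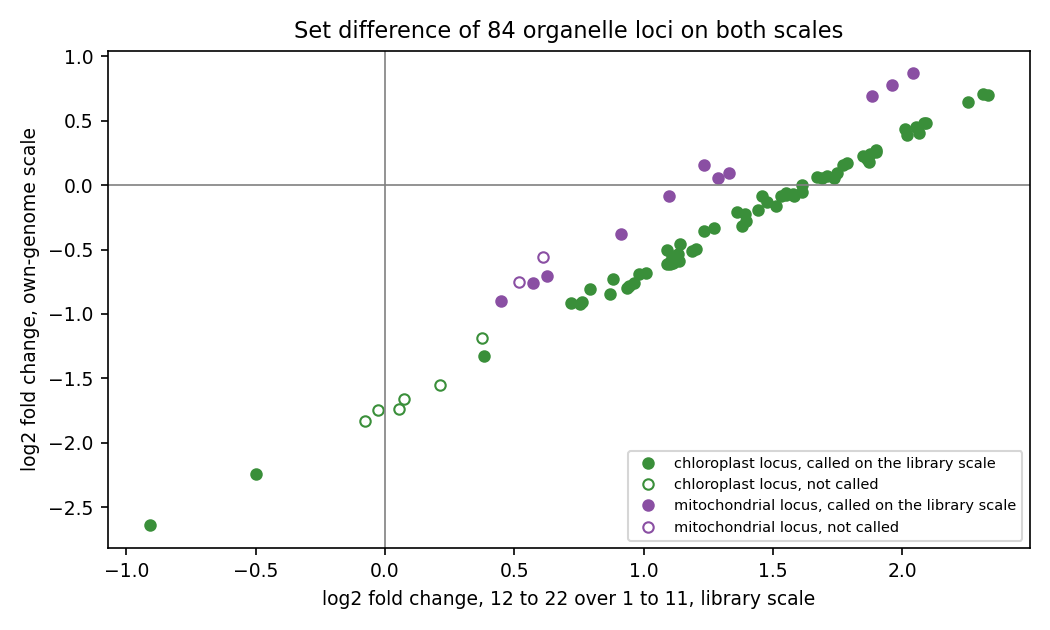
Log2 fold change, second set over first, of the 84 tested organelle loci on the library scale (horizontal axis) and scaled to the total of their own genome (vertical axis), by genome, with filled points for loci called on the library scale. Most points lie to the right of 0, at medians of 1.38 and 1.1 on the library scale, and on both sides of 0 on the own-genome scale, with ATCG00450 lowest at −0.91 and −2.64.

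The test of whether the set difference varied between blocks called 1 organelle locus, ATMG00090 (edgeR adjusted p = 0.0299, interaction F test), and 0 of the 71 chloroplast loci, against 33.5% of all tested loci. The block ratios of ATMG00090 in CPM, second set over first, ran from 1.08 in block 4 to 2.34 in block 6. The share over all tested loci was not kept for DESeq2 or for fits without a library, so their counts of organelle loci have no background here. DESeq2 called 0 organelle loci. The count was 17 without library 3 and 4 without library 1, the libraries that differ within block 1, and 0 in 8 of the other 20 omissions (libraries 5, 7, 8, 9, 10, 11, 15 and 17).

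The comparison that the labels imply is UV against mock. The chloroplast share was 0.0395% to 0.313% in the 11 libraries labelled mock (median 0.149%) and 0.0366% to 0.414% in the 11 labelled UV (median 0.112%), and the ranges overlapped almost wholly. By labelled accession the log2 ratio of UV to mock means was negative in Ba-1 (−2.09), Got-7 (−0.81), T1080 (−0.51) and Lip-0 (−0.48) and positive in C24 (0.75) and Mh-0 (0.87). The Ba-1 value rests on library 1, since the shares there were 0.313% and 0.0667% in mock and 0.0366% and 0.0522% in UV. Mitochondrial shares had the same signs, from −2.37 in Ba-1 to 0.78 in Mh-0.

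In a model of the 12 labelled groups no organelle locus was called for the mean UV effect (0 loci in edgeR and in DESeq2, 4 organelle loci at an unadjusted p under 0.05), and 0% of all tested loci were called. The median log2 fold change was −0.23 over the 71 chloroplast loci and −0.46 over the 13 mitochondrial loci. ATCG00020 stood at −0.68 ± 0.37, ATCG00490 at −0.44, ATMG00020 at −0.55 and ATMG01390 at −0.50, with adjusted p = 0.999969 from edgeR for ATCG00020. Within single accessions 0 organelle loci were called in each of the 6, while 49 loci of the whole table were called in C24 (0.27%), 1 in T1080 (0.00551%) and 0 in the others. In Ba-1, 41 of the 84 organelle loci had an unadjusted p under 0.05 from edgeR, among 311 of all 18149 tested loci. In the other 5 accessions 1 to 3 organelle loci did, among 305 to 2739 of all loci. The Ba-1 count was 4 without library 1, 60 without library 2, 14 without library 3 and 34 without library 4, omissions chosen after seeing the data. The biological coefficient of variation of this model was 26.7%, against 13.2% in the model of block and set. The blocks were drawn from the values of these same libraries, which can lower the latter figure. The comparison therefore says nothing about whether the labels are right. The labels were in doubt from earlier work on these data, so a count of 0 does not show that UV left these RNAs as they were.

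Nuclear genes that run organelle transcription were described in 4 lists. In plastids a bacterial-type RNA polymerase, whose core is encoded in the chloroplast, needs nuclear-encoded sigma factors to find its promoters and a set of associated proteins to work. Phage-type polymerases, also nuclear-encoded, serve mitochondria and some plastid promoters. The sets differed at 76.2% of all tested loci, 37.7% higher and 38.5% lower in the second set. Without overlap, 14.6% of all tested loci were higher and 8.97% lower. Counts of calls and ranges without overlap within these lists are read against those shares. No list was tested as a whole.

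Of the 6 sigma factor genes 5 fell and 1 rose in the second set. SIGE (AT5G24120, also called SIG5), a sigma factor that light and stress induce, stood at 3.44 to 6.54 CPM in the first set (median 4.96) and at 20.7 to 88.3 CPM in the second (median 50.1). The ranges were far apart, and the log2 fold change was 3.25 ± 0.16 (SE, edgeR adjusted p = 7.46e-13). SIG2 (AT1G08540), known for transcription of plastid transfer RNA genes, stood at 151 to 194 CPM and then at 82.4 to 134 CPM, a change of −0.66 ± 0.04 with no overlap. SIGC (AT3G53920) changed by −0.96 ± 0.07 and SIGF (AT2G36990) by −0.72 ± 0.05, also with no overlap between the sets. SIG4 (AT5G13730) had the largest fall of the 5, −1.56 ± 0.13, from 53.4 to 67.4 CPM in the first set to 10.1 to 31.0 CPM in the second. SIGA (AT1G64860) changed by −0.53 ± 0.09, with overlapping ranges of 50.9 to 77.5 and 32.5 to 69.0 CPM.

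Of the 3 phage-type polymerase genes 2 rose and 1 fell. AT5G15700, the polymerase shared by both organelles, rose from 20.7 to 36.6 CPM (median 23.7) to 32.1 to 55.4 CPM (median 40.9), by 0.64 ± 0.06. MGP3 (AT1G68990), the mitochondrial polymerase, rose by 0.67 ± 0.07, and SCA3 (AT2G24120), the plastid polymerase, changed by −0.34 ± 0.06. For SCA3 the medians of the sets were 106 and 109 CPM, the opposite order, and it was not called without the blocks (−0.29, edgeR adjusted p = 0.0702). The ranges of all 3 overlapped.

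Each of the 11 tested genes for proteins associated with the plastid polymerase fell, with a median log2 fold change of −0.34. PTAC6 (AT1G21600) stood at 210 to 254 CPM in the first set and at 88.9 to 169 CPM in the second, a change of −0.78 ± 0.05. PTAC2 (AT1G74850), a pentatricopeptide repeat protein, changed by −0.73 ± 0.06, PTAC3 (AT3G04260) by −0.45 ± 0.05 and PDE312 (AT3G48500) by −0.43 ± 0.04. FSD3 was not called without the blocks (edgeR adjusted p = 0.0922). The twelfth member, PTAC7 (AT5G24314), was absent from the count table. The sum of the 5 green tissue markers, mostly RBCS1A, was lower in the second set as well, though the median of CAB2 was higher, and their part in these differences was not tested. In such bulk samples fewer cells of a type and less RNA per cell cannot be told apart.

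Of 8 genes of organelle RNA turnover, 7 fell and 1 rose. Of the 7, EMB2730 and RHON1 were not called without the blocks (edgeR adjusted p = 0.144 and 0.0928), and EMB2730 had set medians of 55.37 and 55.45 CPM, in the opposite order. CRB (AT1G09340) and CSP41A (AT3G63140), RNA-binding proteins known to stabilise chloroplast transcripts, changed by −0.57 ± 0.04 and −0.51 ± 0.04. RIF10 (AT3G03710), the chloroplast polynucleotide phosphorylase, which trims RNA ends and acts on poly(A) tails, was at 142 to 204 CPM in the first set and 97.3 to 172 CPM in the second, a change of −0.39 ± 0.03. The gene emb2746 (AT5G63420), which encodes ribonuclease J, changed by −0.57 ± 0.04. The one that rose, AT5G14580, the mitochondrial polynucleotide phosphorylase, was at 19.2 to 30.6 CPM and then at 21.4 to 42.7 CPM, a change of 0.30 ± 0.07. None of the genes in the 4 lists was called for the mean labelled UV effect (0 genes in edgeR, adjusted over all tested loci).

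**Figure D5:**
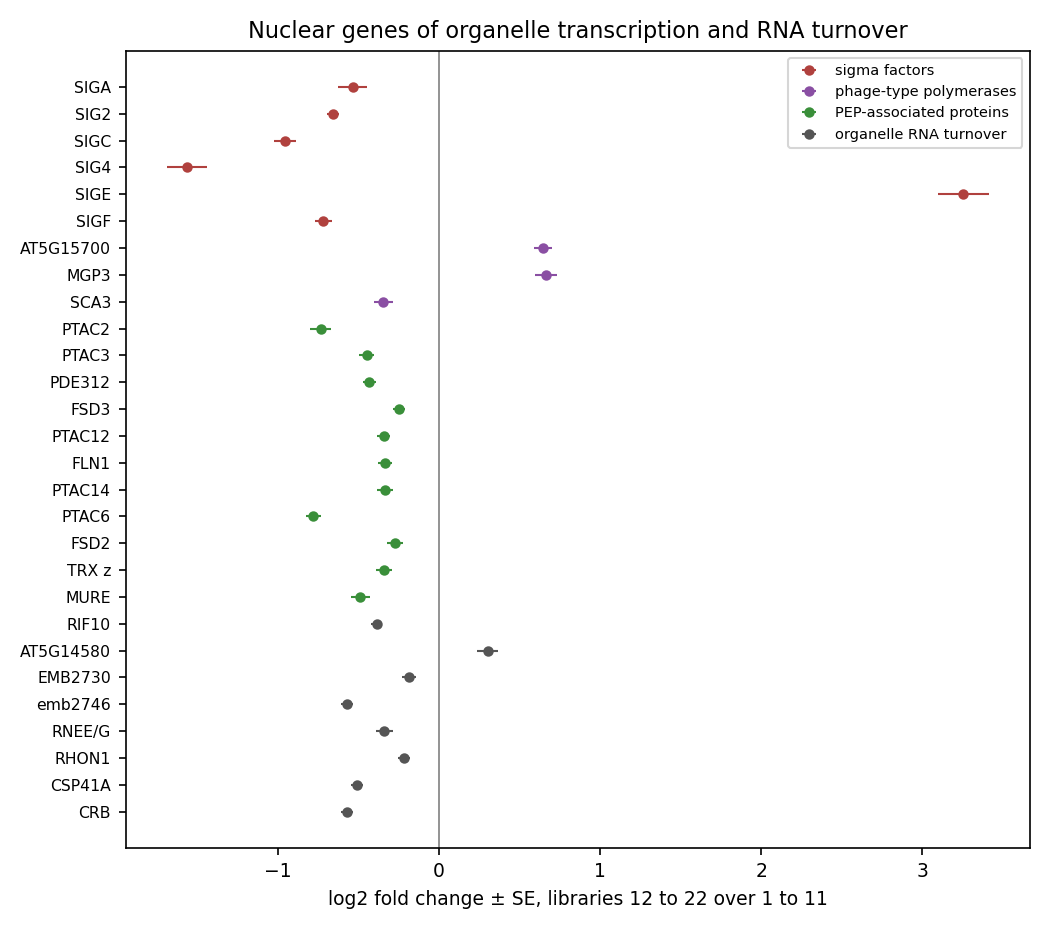
Log2 fold change with its standard error (bars), second set over first within blocks, for 28 nuclear genes of 4 lists (colours). SIGE lies alone at 3.25, AT5G15700, MGP3 and AT5G14580 lie between 0.30 and 0.67, and the others lie below 0.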

How the data were processed

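RNA from seedlings was sequenced in 22 libraries. As deposited, each locus had a raw, whole-number count without normalization. The submitters' processing notes name TopHat, FastQC and builds TAIR10 and TAIR9. The counting program and its use of strand and of reads with several matches are not given in these sources. Of the columns, 0 were left unmatched to samples, and no 2 libraries had identical counts.

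Loci were taken by code. Gene names came from the RefSeq annotation of assembly TAIR10.1, which held 23847 of 23913 nuclear loci. Shares were computed per library with exact binomial intervals. The filter of 1 CPM or more in 2 or more libraries left 18149 loci, whose counts were tested with edgeR 4.0.16 under R 4.3.3 (robust quasi-likelihood F test, TMM factors, Benjamini-Hochberg adjustment over all tested loci, called under 0.05). The models were block plus set, the same with offsets from the totals of each genome, set by block, and the 12 labelled groups, where single libraries borrow the spread of the other groups. Standard errors were derived from fold changes and F statistics. The scripts were tested on simulated data. Total counts ran from 3539510 to 20903894, so that 3 counts, the limit a count of 0 allows, equal 0.848 CPM in the shallowest library.

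Members, blocks, lists and tests were chosen with earlier results of these data known. Named loci were the 5 leading loci of each genome, the loci with a description and, of the called loci without one, the 2 with the smallest p in each direction. A longer rule was planned and shortened to this because codes without a name cannot be interpreted. Alternatives were DESeq2 1.42.0, other scalings, filters and covariates, and leaving out each library.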

Additional observations from a re-analysis of the deposited data

Results flagged for a closer look

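ATMG00090 was listed because its set difference varied between blocks (edgeR interaction F test, adjusted p = 0.0299). Its level in CPM was higher in the second set in 6 of 6 blocks, with ratios of 1.5, 1.73, 1.80, 1.08, 1.31 and 2.34 in blocks 1 to 6. The adjusted p was 0.268 with DESeq2, and it ran from 0.0159 to 0.145 when 1 library was left out, with 9 of the 22 omissions ending the call. Libraries held 23 to 221 counts of this locus.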

How the results depend on the processing

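On the library scale the count of called chloroplast loci was 65 under the replicate block (the labelled replicate number added to the fit), DESeq2, RLE size factors, nuclear library sizes and the labelled treatment as a covariate, 70 without the filter, 57 without the blocks and 60 to 66 without each library in turn. For mitochondrial loci it was 11 in each of these, except 15 without the filter and 10 to 12 without each library. The replicate block changed no count of calls on either scale. Same-numbered libraries of mock and UV did not deviate together in every accession (correlations of 0.60 in Ba-1, −0.00 in C24, −0.34 in Lip-0 and −0.28 in Mh-0), so the numbers were not taken as pairs.

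On the own-genome scale the chloroplast count was 40 to 42 under the alternatives and 36 to 42 without each library. The mitochondrial count was 8 as reported, 10 without the filter (3 higher and 7 lower), 5 without the blocks and 3 to 8 without each library. For the set difference by block the count was 0 with DESeq2, against 1, and 0 to 17 without each library. Leaving out block 1, an alternative chosen after seeing the data, gave 66 and 11 on the library scale, 42 and 7 on the own-genome scale and 3 for set by block. The cause of these changes was not tested, and the share of all tested loci called was not kept for these alternatives. The labelled UV effect had 0 calls throughout.

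The log2 ratio of the chloroplast share was 1.43 as a ratio of the means of all libraries of each set, 1.74 without the leading locus and 1.67 to 1.97 without each library. For the mitochondrial share these were 1.05, 1.34 and 1.20 to 1.67. Both shares without ribosomal and transfer RNA loci were planned and not run, since the sources used here give the codes no RNA type, and for the same reason the own-genome alternative left out only the leading loci. Without the blocks SCA3, FSD3, EMB2730 and RHON1 of the nuclear lists and ATCG00820 were no longer called. The filter at 1 CPM left out 24 chloroplast and 38 mitochondrial loci with counts, and without it the 70 and 15 calls given above were made.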
